A study of Arabidopsis thaliana with 18 samples.

Results

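The transcripts described here are those of 8 heat shock protein loci of Arabidopsis thaliana, 5 of small and 3 of large heat shock proteins. They were chosen by locus, and every probe set that could be tied to those loci was taken. No locus was named for 7895 of the array's 22810 probe sets, control probe sets included. Further probe sets of the 8 loci may therefore be missing. These loci are 8 of 15246 that the array's probe sets could be tied to, and they gave 7 of the 22746 probe sets tested, because a single probe set, 262911_s_at, is shared by AT1G07400 and AT1G59860 and cannot tell their transcripts apart. The small heat shock proteins were AT1G54050 (263150_at), AT5G51440 (248434_at), AT1G07400 with AT1G59860, and HSP17.6A (AT5G12030, 250351_at). The large ones were HSP70 (AT3G12580, 256245_at), HSP101 (AT1G74310, 260248_at) and HSP90.1 (AT5G52640, 248332_at).

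Heat shock proteins are chaperones, which bind proteins that have lost their fold and either hold, refold or release them. Small heat shock proteins bind unfolding proteins without using ATP and keep them from aggregating, HSP70 and HSP90 fold their clients through cycles of ATP hydrolysis, and HSP101 pulls proteins out of aggregates. In plants the transcripts of the stress-induced members are low in unstressed tissue and are raised by heat shock factors on heat and on oxidative stress.

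The study asked how Arabidopsis cell suspension cultures (ACSC) respond to dyes that make singlet oxygen in light and to hydrogen peroxide. Transcripts were measured on Affymetrix ATH1 arrays, with 3 biological replicates in each of 6 groups, 18 arrays in all. All cultures were light-grown suspension cells, so no group stands for a leaf or a whole plant. The labels give a growth light of 50 μE per square metre and second for all arrays. Rose Bengal (RB) at 0.5 μM and H2O2 at 500 μM (HP) share one untreated control, whose arrays carry the numbers of the treated arrays they belong to. Methyl Violet as the labels name it, Methylene Violet in the study's methods (MV), and Indigo Carmine (IC), both at 0.5 μM, share a second untreated control of 3 arrays. The labels name a high-light treatment of 30 min and a dark one of 1 h, without assigning arrays to either. The study describes chemical treatments of 30 min, and the profiled RB and H2O2 cultures as treated in low to medium light.

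The values are log2 signals after robust multi-array averaging (RMA), and they ran from 2.43 to 13.69 over all probe sets. They compare arrays for 1 probe set, not the amounts of different transcripts, and in RNA from whole cultures fewer responding cells and less transcript per cell cannot be told apart. Replicates of a group correlated across probe sets with r between 0.9643 and 0.9912, and the control of RB and HP had the widest spread. RCA, Rubisco activase, a marker of green cells and the only one of 12 such loci with a named probe set, had group means between 10.66 and 11.32. Differences were tested with limma over all probe sets with Benjamini-Hochberg adjustment and called at an adjusted p under 0.05. Each test was run without and with a block for the replicate number, so that arrays of the same number are compared. The platform annotation names only the probe sets of AT1G54050, AT5G51440 and AT1G07400/AT1G59860. The other 4 were named through the study's own lists of transcripts changed under RB or H2O2. All 7 stand in those lists, HSP17.6A in the RB list alone, so no call of a member under RB or HP is independent evidence. The same holds for every comparison that contains RB, HP or their control. The study describes 1 control group of 3, where the labels give 2, and does not say which arrays entered the fits behind its lists.

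**Figure D1:**
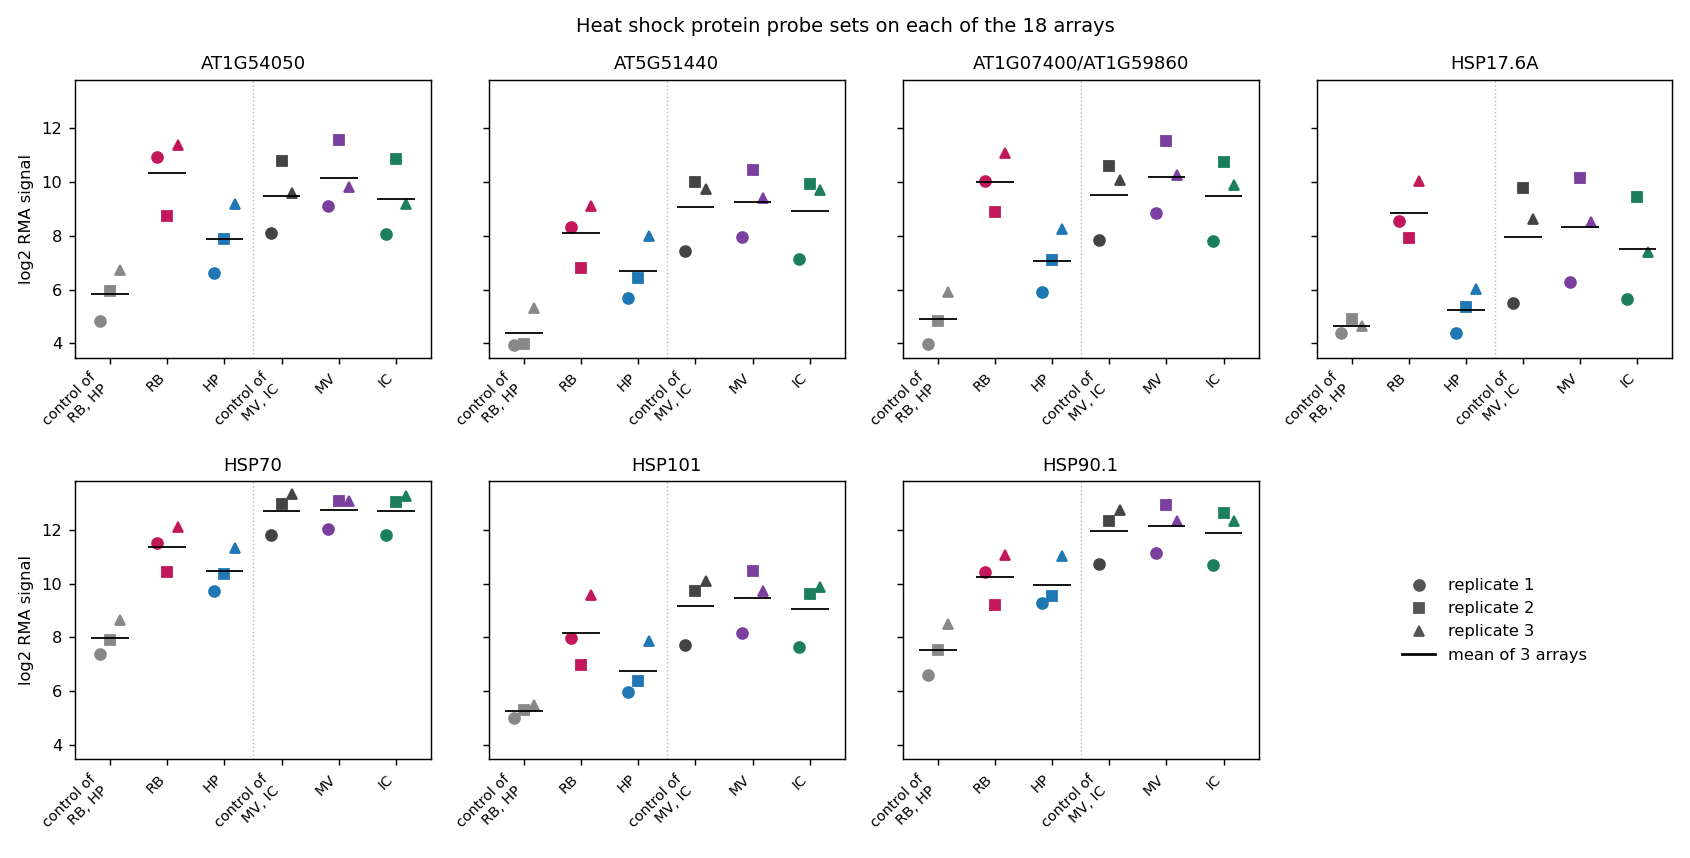
Log2 RMA signal (y axis) of the 7 heat shock protein probe sets on each of the 18 arrays, by group (x axis); markers give the replicate number, lines the mean of 3 arrays, and the dotted line parts the 2 sets of arrays. The control of RB and HP is the lowest group in every panel, and all 9 arrays right of the dotted line lie above its 3 arrays.

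In the set of arrays with RB and HP, all 7 probe sets were lowest in the control and higher under RB on every array. AT1G07400/AT1G59860, whose products are cytosolic small heat shock proteins of class I, had log2 signals of 3.98, 4.85 and 5.90 in controls 1, 2 and 3. Under RB they were 10.02, 8.90 and 11.06, and under HP 5.91, 7.09 and 8.24. The RB arrays did not overlap the control or the HP arrays, and HP 1 lay just above control 3. The RB difference was 5.09 on the log2 scale, 34.0-fold (standard error 0.916, n = 3 arrays per group, limma adjusted p = 0.00561), and it was the largest of the 7.

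AT1G54050 encodes a cytosolic small heat shock protein of class III. Its log2 signals were 4.82, 5.93 and 6.73 in the controls, 10.92, 8.73 and 11.36 under RB, and 6.63, 7.88 and 9.17 under HP. HP 1 lay below control 3, and HP 3 lay above RB 2, so HP overlapped both of the other groups while RB and control stood apart. The transcript rose 22.8-fold under RB (log2 4.51, standard error 0.930, n = 3 arrays per group, limma adjusted p = 0.0137). The call was lost when control 1, RB 1 or RB 3 was left out, where the adjusted p reached 0.0749. It was also lost in a fit to the RB and control arrays alone.

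AT5G51440, whose product is targeted to mitochondria, had log2 signals of 3.94, 3.97 and 5.30 in the controls. RB gave 8.34, 6.81 and 9.12 and HP gave 5.70, 6.42 and 7.98. Both treatments lay wholly above the control, and they overlapped each other through RB 2 and HP 3. The RB rise was 12.9-fold (log2 3.69, standard error 0.897, n = 3 arrays per group, limma adjusted p = 0.0356). It did not pass the threshold without control 1, control 2, RB 1 or RB 3, with an adjusted p of up to 0.155. Nor did it pass in a fit to the RB and control arrays alone.

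HSP17.6A, a cytosolic small heat shock protein of class II, had a different profile under H2O2. Its log2 signals were 4.38, 4.91 and 4.63 in the controls and 8.56, 7.91 and 10.02 under RB, but 4.38, 5.34 and 6.02 under HP. HP 1 was at the level of control 1, and all 3 HP arrays lay below all RB arrays. The RB difference of 4.19 had a standard error of 1.11 and did not pass the threshold without the block (n = 3 arrays per group, limma adjusted p = 0.0563). With the block its standard error was 0.362 and the adjusted p 2.07e-05. Over 13 alternatives against the same control the limma adjusted p reached 0.206. The HP difference was 0.60, with a 95% interval from -1.76 to 2.97.

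HSP70, a cytosolic member of its family, had log2 signals of 7.40, 7.91 and 8.66 in the controls, 11.51, 10.45 and 12.09 under RB, and 9.71, 10.37 and 11.32 under HP. All treated arrays lay above all controls. It was the only one of the 7 called in both treatments without the block, 10.3-fold under RB (log2 3.36, standard error 0.544, n = 3 arrays per group, limma adjusted p = 0.00246) and 5.56-fold under HP (log2 2.48, adjusted p = 0.0467). The RB call held without any single array. The HP call held only without control 3 and was lost without any of the other 5 arrays compared.

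HSP101, the disaggregase, had log2 signals of 4.99, 5.31 and 5.49 in the controls, 7.97, 6.99 and 9.57 under RB, and 5.96, 6.40 and 7.86 under HP. Both treatments lay above the control on every array, and HP 3 lay above RB 2. The RB difference of 2.91 (standard error 0.797) did not pass without the block (n = 3 arrays per group, limma adjusted p = 0.0654). It passed with the block (adjusted p = 0.000267) and reached an adjusted p of 0.252 over its 13 alternatives against the same control. The HP difference was 1.47 (standard error 0.797).

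HSP90.1 is a stress-induced cytosolic HSP90. Its log2 signals were 6.62, 7.54 and 8.49 in the controls, 10.42, 9.20 and 11.08 under RB, and 9.29, 9.56 and 11.02 under HP. No treated array overlapped the controls, while RB 2 lay below all HP arrays. The RB difference was 2.68 (standard error 0.706, n = 3 arrays per group, limma adjusted p = 0.0540) and the HP difference 2.41 (adjusted p = 0.159). Both passed with the block, with limma adjusted p = 0.000152 for RB and 0.000652 for HP. In fits without it, RB passed in some alternatives, as when control 3 or RB 2 was left out. HP passed there when control 3 was left out. Both failed in others against the same control, with a limma adjusted p of up to 0.206 for RB and 0.529 for HP.

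**Figure D2:**
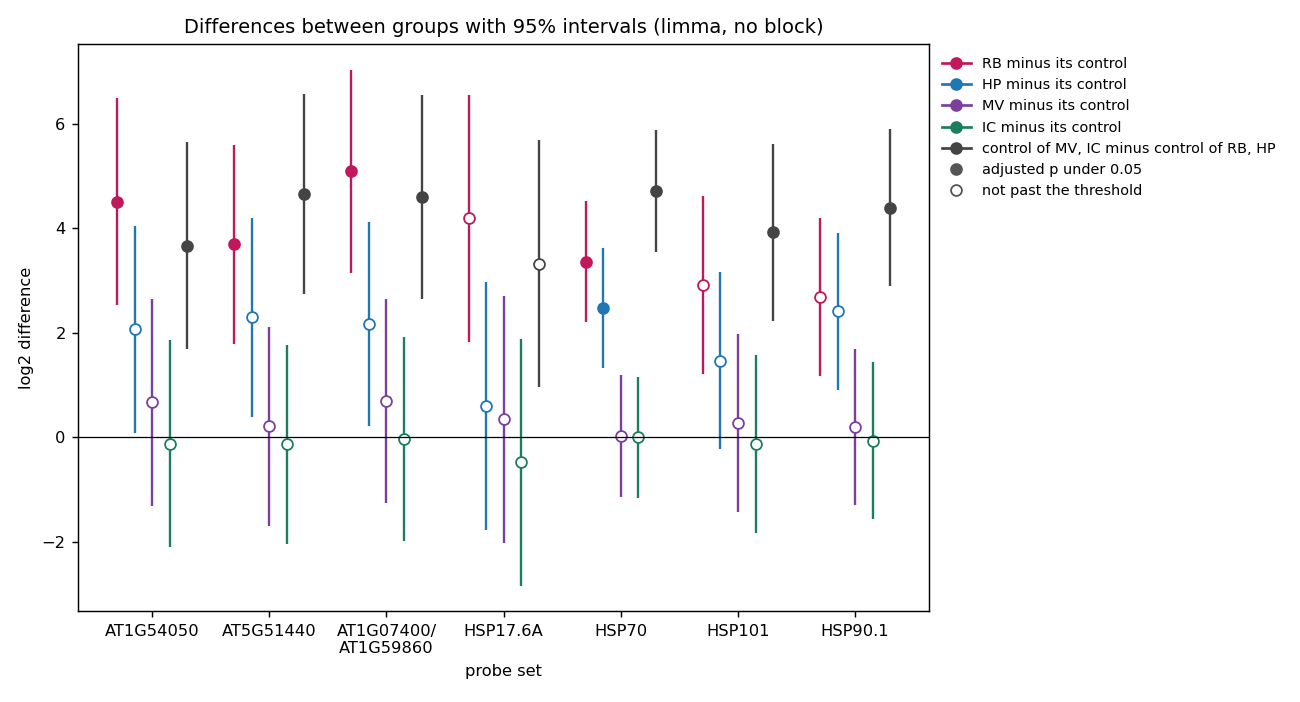
Log2 difference (y axis) of each probe set (x axis) for each treatment against its own control and for the control of MV and IC against that of RB and HP; bars are 95% intervals from limma without a block, and filled points have an adjusted p under 0.05. RB differences lie between 2.68 and 5.09, IC differences between -0.47 and 0.00.

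Without the block, 4 of the 7 probe sets were called higher under RB, where 2.96% of all probe sets were called in either direction and 1.44% higher. With the block all 7 were called higher, beside 7.25% of all probe sets called and 3.56% called higher. Leaving out RB 2 added a call of HSP101 and of HSP90.1, and leaving out control 3 added HSP90.1. The RB arrays lay wholly above the controls for 7 of 7, as they did for 7.41% of all probe sets. The median difference under RB was 4.35 over the 4 small heat shock proteins and 2.91 over the 3 large ones, beside 0.02 over all probe sets. Under HP the corresponding medians were 2.12 and 2.41, beside -0.02.

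Under HP 1 of 7 was called higher, HSP70, where 0.813% of all probe sets were called and 0.629% higher. The block raised this to 6 of 7, beside 2.37% called and 1.77% called higher, the exception being HSP17.6A (n = 3 arrays per group, limma adjusted p = 0.414). Without control 3, HSP90.1 was also called under HP. The HP arrays lay wholly above the controls for 5 of 7 members and for 6.01% of all probe sets, AT1G54050 and HSP17.6A being the others. Within replicate numbers the HP difference of AT1G54050 was 1.81, 1.95 and 2.44 in numbers 1, 2 and 3, although its groups overlapped. For HSP70 it was 2.31, 2.46 and 2.66. HSP101 was less even, at 0.96, 1.09 and 2.37, and HSP17.6A differed by 0.43 and 1.39 in numbers 2 and 3 and was level with its control in number 1. The RB difference of AT1G54050 was 6.10, 2.80 and 4.62, and the RB difference was smallest in number 2 for all members.

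RB was compared with H2O2 directly. The differences of RB over HP were 3.58 for HSP17.6A, 2.92 for AT1G07400/AT1G59860, 2.44 for AT1G54050, 1.44 for HSP101, 1.39 for AT5G51440, 0.89 for HSP70 and 0.28 for HSP90.1. None was called without the block, where 2.84% of all probe sets were, 0.853% in the direction of RB. Unadjusted limma p-values were under the threshold for the first 3. With the block 5 of 7 were called, beside 6.85% of all and 2.29% in that direction, among them all 4 small heat shock proteins and HSP101. HSP70 (n = 3 arrays per group, limma adjusted p = 0.0536) and HSP90.1 (adjusted p = 0.708) were not. RB lay wholly above HP for AT1G07400/AT1G59860 and HSP17.6A, 2 of 7, as for 11.7% of all probe sets. Array by array, HSP17.6A was higher under RB by 4.17, 2.57 and 4.01, whereas HSP90.1 differed by 1.13, -0.36 and 0.06. The 95% interval of the HSP90.1 difference ran from -0.37 to 0.93 with the block and from -1.22 to 1.78 without it, so differences of that size between the treatments remain possible.

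**Figure D3:**
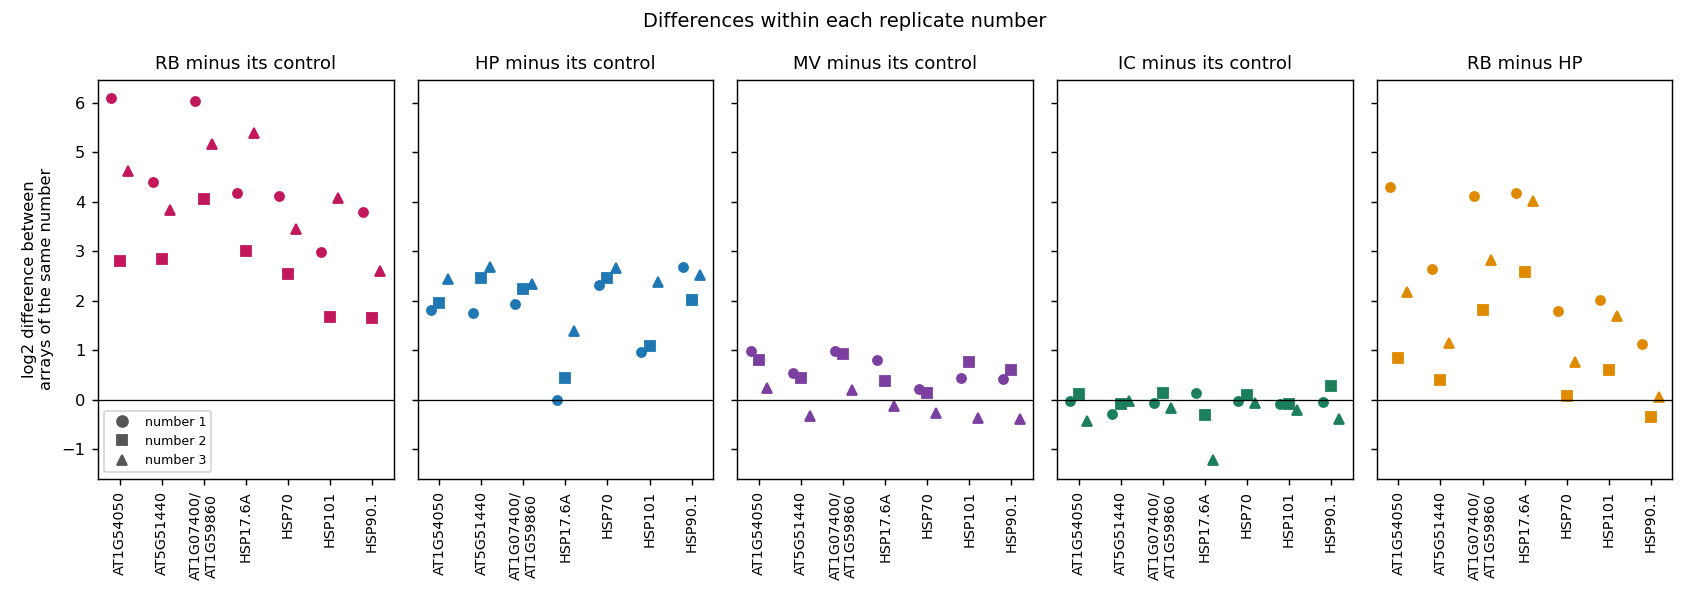
Log2 differences between arrays of the same replicate number (y axis) for each probe set (x axis) and comparison; markers give the number. All RB differences are positive, the lowest HP difference is that of HSP17.6A in number 1, and the lowest IC difference is that of HSP17.6A in number 3 (-1.23).

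The arrays of the other set, with MV, IC and their own control, were high throughout. AT1G54050 had log2 signals of 8.11, 10.77 and 9.60 in that untreated control, 9.09, 11.57 and 9.83 under MV, and 8.08, 10.87 and 9.17 under IC. AT5G51440 had 7.44, 10.01 and 9.72 in the control, 7.97, 10.43 and 9.39 under MV, and 7.15, 9.91 and 9.70 under IC. In both, the number 1 array was lowest and the number 2 array highest in each group, and the groups overlapped throughout.

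AT1G07400/AT1G59860 had 7.86, 10.59 and 10.06 in the control, 8.85, 11.51 and 10.25 under MV, and 7.79, 10.73 and 9.90 under IC. For HSP17.6A the control arrays read 5.50, 9.76 and 8.63, the MV arrays 6.30, 10.14 and 8.51, and the IC arrays 5.64, 9.45 and 7.40. HSP17.6A thus spanned 4.27 log2 units within an untreated group, more than its RB difference of 4.19.

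HSP70 read 11.82, 12.95 and 13.33 in the control, 12.04, 13.09 and 13.06 under MV, and 11.80, 13.04 and 13.27 under IC. HSP101 read 7.73, 9.71 and 10.11 in the control, 8.18, 10.47 and 9.73 under MV, and 7.64, 9.63 and 9.89 under IC. HSP90.1 read 10.74, 12.34 and 12.74 in the control, 11.15, 12.93 and 12.34 under MV, and 10.69, 12.62 and 12.34 under IC. The 3 large chaperones were thus also lowest on the number 1 arrays, and the HSP70 signal of every array in this set lay above that of the RB 1 and RB 2 arrays.

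The untreated controls of the 2 sets thus differed by 3.32 to 4.71, beside 2.68 to 5.09 between RB and its control. The control of MV and IC was higher by 4.71 for HSP70 (26.2-fold, standard error 0.544, n = 3 arrays per group, limma adjusted p = 0.000529), 4.65 for AT5G51440, 4.59 for AT1G07400/AT1G59860, 4.39 for HSP90.1, 3.92 for HSP101, 3.66 for AT1G54050 and 3.32 for HSP17.6A. All but HSP17.6A (adjusted p = 0.0779) were called, 6 of 7, where 7.47% of all probe sets were called and 4.65% higher. The 2 controls did not overlap for 7 of 7, as for 12.7% of all probe sets, and all 9 arrays of the MV and IC set lay above the 3 controls of RB and HP for 7 of 7, as for 4.98%. These shares are not independent evidence, because the members stand in lists that may rest on the same control of RB and HP. The call of AT1G54050 was lost without control 1 or 2 of RB and HP or control 2 or 3 of MV and IC, and those of AT1G07400/AT1G59860 and HSP101 without control 1 of the former or control 3 of the latter, while that of HSP17.6A was gained without control 1 of the latter. A fit to only the arrays compared called 1 of 7, HSP70 (adjusted p = 0.0370). What lies behind the difference between the 2 controls cannot be told apart from the set. Whether all 18 arrays were normalized in 1 run is not stated. No fit with the replicate block can be made here because each number lies within a set.

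Within the MV and IC set the replicate number went with larger differences than the treatment. Number 1 was lowest in all 3 groups for 7 of 7 members, as for 8.33% of all probe sets, and in the RB and HP set for 0 of 7, beside 9.28%. Any one number was lowest in all 3 groups for 19% of all probe sets in the former and 22.3% in the latter, where it was so for 0 of 7 members. For HSP17.6A the means of the 3 numbers were 5.81, 9.78 and 8.18, a range of 3.97. The largest range among arrays of one number was 1.23, and the group means ranged over 0.82. For HSP70 the same ranges were 1.33, 0.28 and 0.03. In the RB and HP set the order was turned, with a range of number means of 1.63 for AT1G54050 beside a range of group means of 4.51. What the number stands for beyond a biological replicate was not tested.

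No member passed the test for MV or IC against their own control. The MV differences were 0.70 for AT1G07400/AT1G59860, 0.67 for AT1G54050, 0.35 for HSP17.6A, 0.28 for HSP101, 0.21 for AT5G51440, 0.20 for HSP90.1 and 0.03 for HSP70. The IC differences ran from -0.47 for HSP17.6A to 0.00 for HSP70. None of the 7 was called in either treatment by limma, with or without the block, and 0% of all probe sets were. MV lay wholly above its control for 0 of 7 (6.33% of all probe sets), IC above its control for 0 of 7 (5.87%) and MV above IC for 0 of 7 (3.55%). At an unadjusted p under 0.05, 758 of all probe sets passed under MV and 374 under IC without the block, none of them members. With the block 1272 and 504 passed, among them 1 member, AT1G07400/AT1G59860 under MV (limma adjusted p = 0.854). Without the block, the 95% interval of the MV difference ran from -1.31 to 2.65 for AT1G54050 and from -1.25 to 2.65 for AT1G07400/AT1G59860. Both were higher under MV in all 3 numbers, by 0.99, 0.80 and 0.23 and by 0.99, 0.92 and 0.19. With the block, the 95% interval for HSP70 was -0.52 to 0.57 under MV and -0.54 to 0.54 under IC, and for HSP17.6A -0.43 to 1.14 and -1.25 to 0.32. MV and IC, compared directly, differed by 0.03 for HSP70 to 0.82 for HSP17.6A, with no call beside 0% of all.

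The 3 dyes were given at the same dose of 0.5 μM. The study cites lower singlet oxygen yields for MV and IC than for RB, so equal doses need not give equal singlet oxygen. The effect of RB against its control was set against those of MV and IC against theirs. The RB effect exceeded the MV effect by 4.39 for AT1G07400/AT1G59860, 3.84 for HSP17.6A, 3.83 for AT1G54050, 3.48 for AT5G51440, 3.33 for HSP70, 2.64 for HSP101 and 2.49 for HSP90.1. Without the block none of the 7 passed, the lowest being HSP70 (n = 3 arrays per group, limma adjusted p = 0.0988), beside 0.374% of all probe sets, 0.299% in this direction. With the block all 7 passed, beside 1.34% and, in this direction, 0.95%. Over IC the RB effect was larger by 2.74 for HSP90.1 to 5.12 for AT1G07400/AT1G59860, with 0 of 7 called without the block (0.615% of all, 0.374% in this direction) and 7 of 7 with it (2.44% of all, 1.39% in this direction). HSP70 alone was called over IC without the block when control 3 of RB and HP or RB 2 was left out. These differences contain the RB difference for which the study listed the members, so they are no independent evidence. They also rest on controls at unlike levels. For AT5G51440, HSP70, HSP101 and HSP90.1 the mean under RB was below the mean of the untreated control of MV and IC.

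Ranked by group mean, the control of RB and HP was lowest and HP next for all 7 probe sets. RB had the highest mean of all groups for AT1G54050 and HSP17.6A, and the third from the lowest for AT5G51440, HSP70, HSP101 and HSP90.1. Between neighbours in this order, the only groups that did not overlap were HP and the control of RB and HP, for the 5 probe sets other than AT1G54050 and HSP17.6A. RB overlapped its neighbours in the order for all 7, but not every group of the other set: all RB arrays of HSP90.1 (9.20 to 11.08) lay below its MV arrays (11.15 to 12.93).

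The members varied together. Over the 18 arrays the 21 pairs of member probe sets correlated with r between 0.76 and 0.98 (median 0.93), and their deviations from the group means had the same range and median. The arrays share groups and replicate numbers, so this describes these arrays. By correlation with the mean of the members over the 18 arrays, the probe sets most like them among 14365 of 1 other locus were AT2G20560, a DnaJ co-chaperone of HSP70 (r = 0.972), HSP81-2, an HSP90 (0.962), PDX1.2 of the vitamin B6 pathway (0.953), Hsp70-2 (0.952) and AT5G37670, an HSP20-like small heat shock protein (0.950). Their log2 differences were 3.13, 1.72, 1.58, 1.66 and 1.46 under RB and 3.63, 2.57, 2.11, 2.29 and 1.89 between the controls. HSP81-2 and PDX1.2 were named only through the study's lists of changed transcripts, and probe sets without a named locus were not ranked.

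The other chaperone transcripts were taken from lists of 79 loci, of which 44 had a named probe set, 41 probe sets in all. Under RB 9 were called higher and 1 lower, with a median difference of 1.29 beside 0.02 over all probe sets, and with the block 29 and 1. Under HP 2 were called higher and 0 lower (median 0.72), and 15 with the block. Between the controls 23 were higher and 0 lower (median 1.89). Of all probe sets, 2.96% were called under RB and 1.44% called higher, with the block 7.25% and 3.56%. Under HP these shares were 0.813% and 0.629%, with the block 2.37% and 1.77%, and between the controls 7.47% and 4.65%. The counts of single lists below stand beside the same shares. Of the 21 that the platform names, 3 were called under RB, 12 with the block, and 0 under HP, 6 with the block. The other 20 were named through the study's own lists of changed transcripts and are no independent evidence for RB, HP or the controls.

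**Figure D4:**
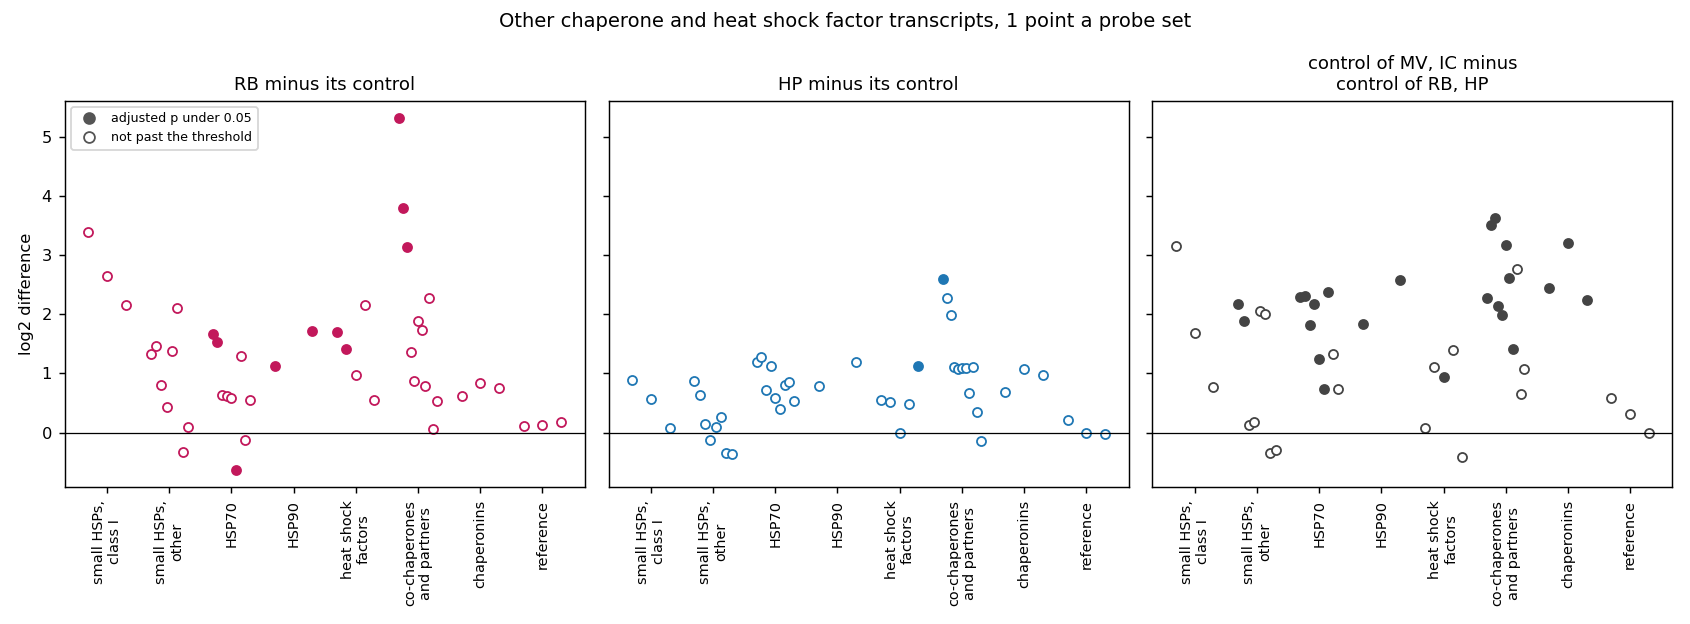
Log2 differences (y axis) of 41 further chaperone and heat shock factor probe sets and 3 reference transcripts, by list (x axis), in 3 comparisons; 1 point is a probe set, filled where the limma adjusted p without a block is under 0.05. DREB2A is the highest point under RB (5.31) and BIP1/BIP2 the only filled point below 0 (-0.63).

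Among other small heat shock proteins, none of 3 class I probe sets and none of 8 of other classes and compartments passed under RB without the block, and 3 and 4 did with it. HSP17.4 of class I lay between 5.56 and 6.34 in the controls, between 8.39 and 10.92 under RB, and between 6.01 and 7.37 under HP. Its RB difference was 3.39 (standard error 1.00, n = 3 arrays per group, limma adjusted p = 0.0882). AT1G53540 of the same class differed by 2.16 under RB and 0.08 under HP. None of the 11 was called under HP, with or without the block. AT2G19310 (2.17) and AT5G37670 (1.89) were higher in the control of MV and IC.

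In the HSP70 family the cytosolic Hsp70-2 (1.66) and AT3G09440 (1.53) rose under RB, 2 of 9 probe sets, and 5 did with the block. The probe set shared by BIP1 and BIP2, HSP70 chaperones of the endoplasmic reticulum, fell. It ranged from 12.23 to 12.69 in the controls, from 11.62 to 11.95 under RB, and from 12.61 to 12.92 under HP, so RB lay below both. Its difference was -0.63 against the control (standard error 0.152, n = 3 arrays per group, limma adjusted p = 0.0339) and -1.03 against HP (adjusted p = 0.00117). In the control of MV and IC 7 of the 9 were higher, BIP1/BIP2 among them (0.74). Both further HSP90 probe sets, HSP81-2 (1.72) and the one shared by HSP81-3 and Hsp81.4 (1.13), rose under RB, and both were higher between the controls (2.57 and 1.83).

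Of 21 heat shock factor loci, 5 had a named probe set, all through the study's lists. HSFA8 rose under RB by 1.70 and AT-HSFB2B by 1.41, and HSF A4A rose under HP by 1.12. HSFA8 lay between 6.38 and 7.42 in the control of RB and HP, between 8.66 and 8.86 under RB, between 7.15 and 7.87 under HP, and between 6.79 and 7.31 in the MV and IC control. RB stood apart from the other groups, and between the controls HSFA8 differed by 0.08 (standard error 0.249, n = 3 arrays per group, limma adjusted p = 0.861). HSF A4A differed by -0.41 between the controls, and HSFB2A was the only one of the 5 called there (0.94). HSFA2, a factor that sustains the heat response, had a difference of 2.16 under RB that passed only with the block (adjusted p = 0.181 without it, 0.0153 with it).

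Of 11 probe sets of co-chaperones and heat-induced partners, 3 rose under RB. DREB2A, a transcription factor of the drought and heat responses, rose by 5.31, the coactivator MBF1C by 3.79 and AT2G20560 by 3.13. DREB2A also rose under HP (2.60). Between the controls 8 of 11 were higher, with AT2G20560 at 3.63, MBF1C at 3.51 and DREB2A at 2.28. The 3 chaperonins of plastid and mitochondrion, CPN60A, Cpn60beta2 and HSP60, had differences of 0.62, 0.83 and 0.76 under RB that passed only with the block, and all 3 were higher between the controls (2.45, 3.20 and 2.24). Neither further ClpB locus had a named probe set. The reference transcripts were PEX4, AT4G34270 and a probe set shared by elongation factor 1-alpha genes (AT5G60390 among them). They differed by 0.11 to 0.18 under RB and by 0.00 to 0.58 between the controls, and none of the 3 was called. The elongation factor probe set, at 0.58, fell just short (standard error 0.171, n = 3 arrays per group, limma adjusted p = 0.0518).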

How the data were processed

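The deposited values are log2 signals that the authors obtained by RMA with background correction and quantile normalization. Affy and RMA are named in the submitters' processing notes, and the version used for RMA and the build behind the probe sets are not given in the sources used here. Whether all 18 arrays were normalized in 1 run is not stated. The number of arrays limits the precision. The members and gene lists were chosen with earlier results of these data known.

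With the 64 control probe sets left out, 22746 were fitted with limma 3.58.1 in R 4.3.3 (lmFit, contrasts.fit, eBayes) as 6 groups sharing 1 spread (12 residual and 3.37 prior degrees of freedom), after tests on simulated data. Figures used Python 3.11.15 and matplotlib 3.10.9. The study's methods name no block, so none was used first. The titles pair control and treated arrays by number. Deviations from group means of same-numbered arrays correlated with means of 0.218 (control and RB), 0.563 (control and HP), 0.388 (RB and HP), 0.161 (control and MV), 0.427 (control and IC) and 0.389 (MV and IC). The lowest were 0.000948 (control and RB) and -0.333 (control and MV), both of number 3. The fit with the number as a block had 8 residual and 4.63 prior degrees of freedom.

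Loci came from the platform annotation (14016 probe sets) and otherwise from the study's lists of changed transcripts (899), whose fold changes and p-values were not used. Named were all members, up to 4 of each list by the smallest p under RB or between the controls, the 5 probe sets most like the members, and reference transcripts. HSF A4A and BIP1/BIP2 fall outside this rule and were chosen after their values were seen.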

Additional observations from a re-analysis of the deposited data

How the results depend on the processing

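Alternatives were the replicate block, another quantile normalization, subtraction of array medians, a fit to only the arrays compared, a filter to probe sets above the median mean, control probe sets kept, a trended and robust prior, each array left out, and, for RB and HP, the control of the other set. Keeping control probe sets or changing the prior moved no call of the 7 members. The replicate block changed the members called from 4 to 7 for RB, from 1 to 6 for HP, from 0 to 5 for RB over HP, from 0 to 7 for RB over MV and from 0 to 7 for RB over IC. It changed no call for MV, IC or MV against IC. The filter gave 7 for RB and 1 for RB over IC, another quantile normalization gave 0 for HP, and a fit to only the arrays compared gave 0 for HP, 1 for RB over HP and 1 between the controls. The fit to only the arrays compared also lost the RB calls of AT1G54050 and AT5G51440. Over all comparisons, subtraction of array medians added 2 member calls. The fit to only the arrays compared added 2 and lost 8. The filter tests fewer probe sets and that fit uses fewer arrays. For the rest the cause was not tested.

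Leaving out single arrays gave 2 to 6 calls for RB, 0 to 2 for HP, 3 to 7 between the controls and 0 to 1 for RB over IC. It turned the sign of small differences. HSP90.1 ranged from -0.15 to 0.81 for RB over HP. Under MV the ranges were -0.03 to 1.31 for AT1G54050, -0.60 to 0.86 for AT5G51440, -0.12 to 1.37 for AT1G07400/AT1G59860, -0.88 to 1.36 for HSP17.6A, -0.41 to 0.37 for HSP70, -0.45 to 0.92 for HSP101 and -0.40 to 0.69 for HSP90.1. Under IC, in that order, they were -0.87 to 0.53, -0.94 to 0.75, -0.85 to 0.81, -1.70 to 0.46, -0.44 to 0.45, -0.85 to 0.58 and -0.66 to 0.54. For MV against IC they were -0.54 to 0.99 for AT5G51440, -0.11 to 1.41 for AT1G07400/AT1G59860, -0.11 to 1.83 for HSP17.6A, -0.43 to 0.37 for HSP70, -0.30 to 1.04 for HSP101 and -0.34 to 0.75 for HSP90.1. AT1G07400/AT1G59860 under IC was 0.01 after another quantile normalization and 0.01 after subtraction of medians.

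Against the control of the other set, which brings in the difference between the sets, 0 members were called higher under RB, and AT5G51440 (-0.97), HSP70 (-1.35), HSP101 (-1.01) and HSP90.1 (-1.71) turned. Under HP all 7 turned, AT1G54050 to -1.60, AT5G51440 to -2.36, AT1G07400/AT1G59860 to -2.42, HSP17.6A to -2.72, HSP70 to -2.24, HSP101 to -2.44 and HSP90.1 to -1.99, and HSP70 was called lower (limma adjusted p = 0.0305).

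Over all probe sets, calls without the block, with it and in a fit to only the arrays compared were 673, 1649 and 136 for RB, 185, 539 and 36 for HP, 647, 1559 and 375 for RB against HP, 85, 305 and 54 for RB over MV, and 140, 554 and 81 for RB over IC. Between the controls they were 1698 and, in a fit to only those arrays, 24. Leaving out single arrays gave 384 to 1395 calls for RB, 93 to 1018 for HP and 386 to 3724 between the controls, the most without control 3 of RB and HP in each. Subtracting array medians moved the split of higher and lower calls from 328 and 345 to 245 and 484 for RB, from 1058 and 640 to 712 and 726 between the controls, and from 85 and 55 to 73 and 101 for RB over IC (76 and 82 after another quantile normalization). When likeness was measured on deviations from group means, 0 of the 5 probe sets most like the members were shared.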

Other observations

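When likeness to the members was taken from deviations from the group means, so that it followed how arrays of a group differed among themselves, other transcripts led. They were AT1G67360 (r = 0.960 over 18 arrays, among 14365 probe sets of 1 other locus), AT3G12050, an Aha1 domain protein of the kind that activates HSP90 (0.951), AT5G25450, a subunit of cytochrome bd ubiquinol oxidase by its description (0.946), AT2G41160 (0.926) and HSP17.4, a class I small heat shock protein (0.925). Their log2 differences under RB were 0.57, 0.68, 1.19, -0.30 and 3.39, and those between the controls 1.61, 1.48, 2.54, 1.43 and 3.16. AT2G41160 had group means of 7.31 in the control of RB and HP, 7.01 under RB and 8.74 in the control of MV and IC. These correlations describe arrays that share replicate numbers. HSP17.4 was named only through the study's lists of changed transcripts, and probe sets without a named locus were not ranked.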
